A study of Homo sapiens with 12 samples.

Results

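The genes examined here were the fusion partners TFE3 and PRCC and the other MiT/TFE transcription factors MITF, TFEB and TFEC. They were taken by gene symbol from a table of 26334 genes, and all 5 were found. RNA was sequenced from HK-2 cells, an established human kidney proximal tubule epithelial line, that carried a PRCC-TFE3 fusion gene switched on by doxycycline (Dox). The 4 groups were kept for 48 h with DMSO as vehicle, with Dox, with 100 nM of MSC2530818, an inhibitor of the kinases CDK8 and CDK19, or with Dox and the inhibitor together. Each group had 3 libraries, described by the submitters as independent biological replicates. All groups carried the fusion gene and grew in Advanced DMEM/F-12 with Tet-approved serum, puromycin and blasticidin. No group received Dox without carrying the fusion gene, so an effect of Dox itself and an effect of the fusion cannot be told apart. The sources used here do not give the promoter of the introduced gene, the Dox dose or whether the line was 1 clone.

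MiT/TFE factors are basic helix-loop-helix leucine zipper proteins that bind E-box DNA as homodimers or as heterodimers with each other. When nutrients are plentiful, mTORC1 on the lysosome phosphorylates them and 14-3-3 proteins hold them in the cytoplasm; when nutrients or lysosomes fail, they enter the nucleus and act on genes for lysosomes and autophagy. In translocation renal cell carcinoma, TFE3 is joined to another gene such as PRCC, which encodes a nuclear protein tied to splicing and to the mitotic checkpoint. Mediator, which links transcription factors to RNA polymerase II, carries CDK8 or CDK19 in its kinase module.

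Expression is given as FPKM, fragments scaled by transcript length and library total, as deposited. FPKM sums ran from 429208 to 473950 per library and were highest in replicate 1 of each group. Read totals are not in the table, so the depth is unknown. Among 18 genes listed as proximal tubule markers, 8 reached FPKM 1 in some library, PAX8, KRT8 and KRT18 among them. Another 8, including LRP2, CUBN and HNF4A, stayed under 0.1 in all libraries, and SLC22A6 and SLC22A8 were listed at 0. The summed level of the 18 markers was 670.4 to 790.5 with vehicle and 558 to 584 with Dox. It was 812 to 940.3 with the inhibitor and 649 to 699 with both. The keratins KRT8 and KRT18 were the highest, at 295.2 and 209.3 FPKM with vehicle and 222.6 and 150.3 with Dox. They made up most of the sums, which therefore mainly follow the keratins. GGT1 went from 39.7 to 48.4 and MME from 5.22 to 8.94. Of 7 markers tested by limma, 4 were lower and 2 higher with Dox at an unadjusted p under 0.05. The share of all tested genes at that unadjusted p was not counted, so nothing is drawn from these counts. The part of the tubule markers in the results was not tested. In bulk RNA, fewer cells of a type and less RNA per cell cannot be told apart.

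Start-site sequence is shown for the genes whose levels moved. It is taken from RefSeq windows on build GRCh38.p14, from 250 bases before to 50 after a start. The stretch printed ends before any annotated exon that lies in the window. The resident TFE3 gene lies on chromosome X from 49028726 to 49043486 on the minus strand. PRCC lies on chromosome 1 from 156750610 to 156800817 on the plus strand, and TFEB on chromosome 6 from 41683978 to 41736259 on the minus strand. These gene bounds are from GENCODE on GRCh38. By them the PRCC and TFEB stretches printed here lie inside the annotated genes, downstream of the gene's first annotated base. The sequences are chrX:49043487-49043607 (minus strand) for TFE3 and chr1:156767285-156767499 (plus strand) for PRCC. For TFEB the sequence is chr6:41735609-41735858 (minus strand, the most upstream of 3 RefSeq starts). Each is written 5′ to 3′. Capitals mark a CCAAT box, read here on the other strand as ATTGG, or a GC box, GGGCGG.
TFE3: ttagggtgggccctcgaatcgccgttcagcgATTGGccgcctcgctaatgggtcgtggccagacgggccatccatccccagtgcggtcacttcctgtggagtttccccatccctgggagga
PRCC: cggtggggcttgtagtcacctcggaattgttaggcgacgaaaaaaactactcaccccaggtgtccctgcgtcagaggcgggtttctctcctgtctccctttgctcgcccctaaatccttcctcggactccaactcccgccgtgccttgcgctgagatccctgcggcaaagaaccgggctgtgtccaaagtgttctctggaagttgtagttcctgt
TFEB: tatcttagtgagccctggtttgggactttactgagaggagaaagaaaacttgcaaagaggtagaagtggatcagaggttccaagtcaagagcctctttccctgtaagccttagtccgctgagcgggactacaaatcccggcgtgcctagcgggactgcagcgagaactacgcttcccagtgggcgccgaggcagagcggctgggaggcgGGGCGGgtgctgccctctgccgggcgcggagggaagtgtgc
All 10 RefSeq windows of the 5 genes were searched on both strands for the E-box CACGTG, its extended form TCACGTG, which contains CACGTG, and the M-box TCATGTG. None of the 10 windows held any of these 3 spellings. Among all 35116 windows of the same length, 7.26% held CACGTG, 3.71% held TCACGTG and 2.92% held TCATGTG. The common motifs GGGCGG and CCAAT were in 44.95% and 34.61% of all windows.

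TFE3 was the most abundant of the 5 genes in every group, and its RNA rose 4.18-fold with Dox. TFE3, the factor joined in the fusion, stood at 38.87, 35.81 and 32.73 FPKM in the vehicle libraries, a mean of 35.8 ± 3.1 (SD, n = 3). With Dox the libraries gave 149.12, 153.93 and 145.99 FPKM, a mean of 149.7 ± 4.0 (SD, n = 3). With the inhibitor alone they gave 29.7, 27.41 and 26.27 FPKM, a mean of 27.8 ± 1.7 (SD, n = 3). Every library with the inhibitor alone lay below every vehicle library, and every Dox library lay above both. With Dox and the inhibitor the values were 87.58, 83.2 and 81.71 FPKM, a mean of 84.2 ± 3.1 (SD, n = 3), which was 2.35 times the vehicle mean. These libraries fell between the vehicle and the Dox libraries without overlapping either.

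PRCC, which gives the fusion its first part, was also highest with Dox and lowest with the inhibitor alone. Its libraries gave 30.93, 28.75 and 25.76 FPKM with vehicle and 39.97, 43.39 and 41.61 FPKM with Dox, means of 28.5 ± 2.6 and 41.7 ± 1.7 (SD, n = 3 each). With the inhibitor they gave 24.82, 20.27 and 23.16 FPKM, a mean of 22.8 ± 2.3 (SD, n = 3). With both agents they gave 32.14, 24.92 and 28.88 FPKM, a mean of 28.6 ± 3.6 (SD, n = 3). PRCC in cells with both agents was thus 1.01 times its vehicle level, and those 2 groups overlapped. The table sums reads per gene, so reads of the introduced fusion cannot be told apart from reads of the resident TFE3 and PRCC genes.

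MITF, the family member best known from melanocytes, was expressed in these kidney cells at group means from 13.8 to 16.3 FPKM. Its values were 14.99, 16.41 and 17.38 FPKM with vehicle and 13.18, 13.58 and 14.74 FPKM with Dox, means of 16.3 ± 1.2 and 13.8 ± 0.81 (SD, n = 3 each). They were 13.45, 17.58 and 17.07 FPKM with the inhibitor and 13.94, 15.16 and 16.8 FPKM with both, means of 16.03 ± 2.3 and 15.3 ± 1.4 (SD, n = 3 each). Replicate 1 was the lowest library in all 4 groups.

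TFEB, the close relative of TFE3 in lysosome control, was near FPKM 1 and was lower wherever the inhibitor was present. It gave 1.39, 1.68 and 1.23 FPKM with vehicle and 1.34, 1.81 and 1.54 FPKM with Dox, means of 1.43 ± 0.23 and 1.56 ± 0.24 (SD, n = 3 each). With the inhibitor it gave 0.61, 0.68 and 0.43 FPKM, and with both agents 0.68, 0.83 and 0.6 FPKM, means of 0.57 ± 0.13 and 0.70 ± 0.12 (SD, n = 3 each). All 6 libraries with the inhibitor lay below all 6 without it. TFEC, a member described mainly in myeloid cells, was listed between 0 and 0.04 FPKM in all 12 libraries and was not tested.

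**Figure D1:**
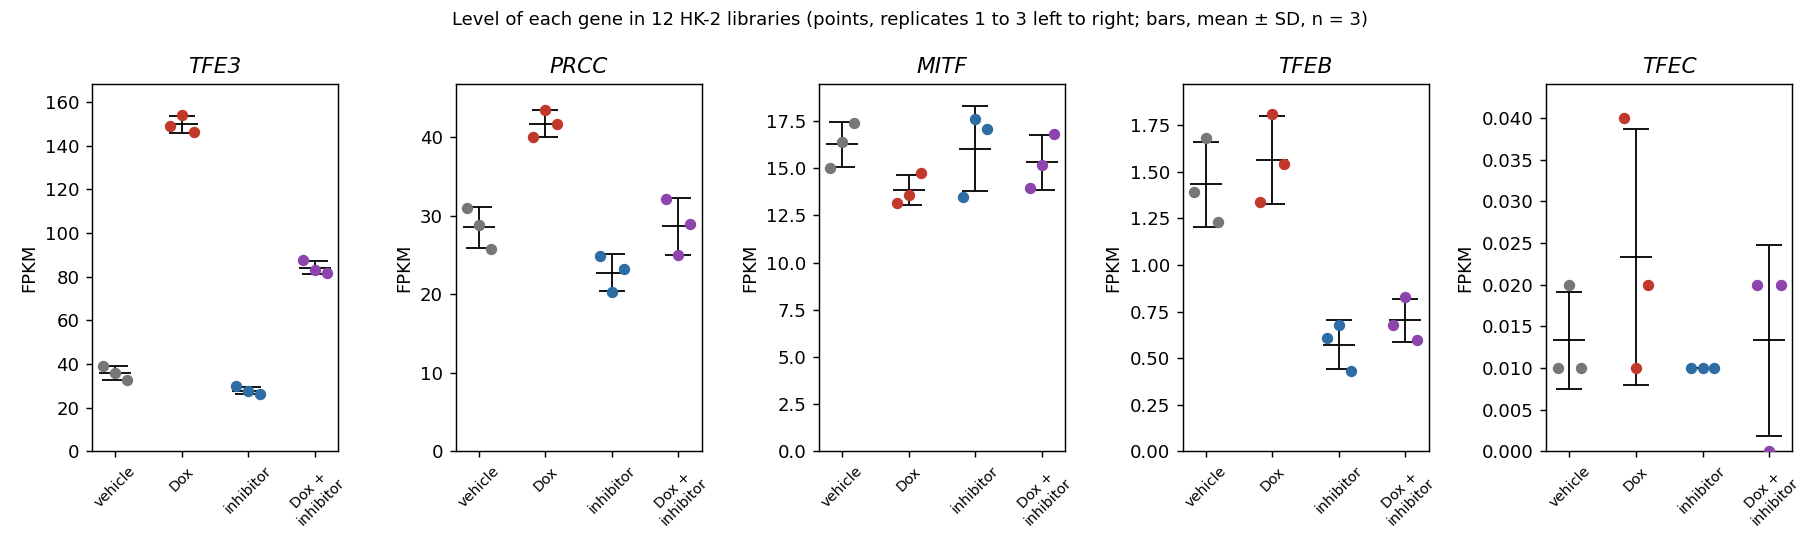
FPKM of TFE3, PRCC, MITF, TFEB and TFEC (y axes) in each of the 12 libraries by group (x axis); points are libraries and bars are the mean with SD over 3 libraries. TFE3 rises from a mean of 35.8 with vehicle to 149.7 with Dox and 84.2 with Dox and the inhibitor, while TFEB is lower in all libraries with the inhibitor.

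The order TFE3, PRCC, MITF, TFEB, TFEC held in every group, and the ranges of neighbouring genes in that order did not overlap within a group. FPKM is scaled by transcript length, so levels without Dox can be set side by side. The fusion holds only a part of each gene, so with Dox its reads may be scaled by lengths that are not its own. The TFE3 level was above 82.2% of tested genes with vehicle and 96.6% with Dox. MITF was above 63.5% and 57.7% of tested genes in the same groups, and TFEB above 8.1% in both. The summed FPKM of TFE3, MITF, TFEB and TFEC was 53.5 ± 2.0 with vehicle, 165.1 ± 3.7 with Dox, 44.4 ± 1.1 with the inhibitor and 100.2 ± 1.8 with both (SD, n = 3 each). TFE3 made up 66.8 ± 3.3% of that sum with vehicle, 90.7 ± 0.61% with Dox, 62.6 ± 4.5% with the inhibitor and 84.0 ± 1.6% with both (SD, n = 3 each). MITF made up 30.5% with vehicle and 8.39% with Dox. TFEB made up 2.68% with vehicle and 0.946% with Dox.

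**Figure D2:**
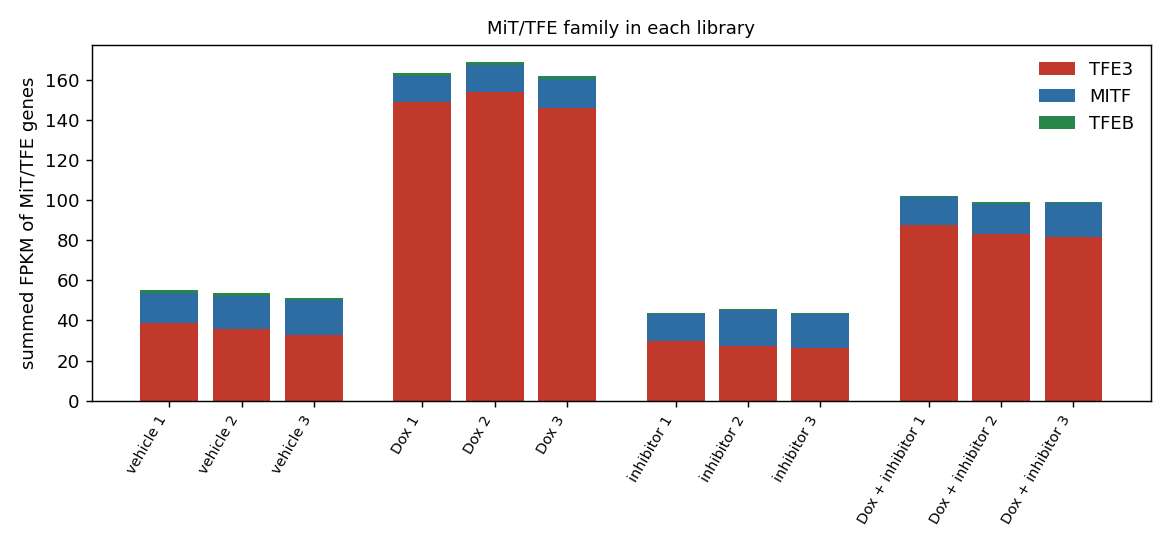
Summed FPKM of TFE3, MITF and TFEB (y axis, stacked bars) in each of the 12 libraries (x axis); TFEC is too low to draw. TFE3 holds on average 66.8% of the family sum with vehicle, 90.7% with Dox, 62.6% with the inhibitor and 84.0% with both.

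The first comparison asked what Dox did to these genes without the inhibitor. TFE3 rose by 2.04 ± 0.07 (SE) on the log2(FPKM + 1) scale, with a 95% interval of 1.89 to 2.18 and a limma adjusted p of 1.42e-08. Only 17 of the 12649 tested genes changed by more in either direction, so TFE3 was number 18 by size. PRCC rose by 0.54 ± 0.10 (SE), with an interval of 0.32 to 0.76 and an adjusted p of 0.00352. MITF was 0.851 times its vehicle mean, and its groups did not overlap, but its change of -0.22 (interval -0.44 to 0.01) had an adjusted p of 0.168. TFEB changed by 0.08 (interval -0.16 to 0.31, adjusted p = 0.652). Thus 2 of the 4 members tested were called, both higher, against 17.9% of all tested genes called, 10.6% higher and 7.31% lower. The groups did not overlap for TFE3 and PRCC, both higher, and MITF, lower, against 39.0% of tested genes, 22.8% higher and 16.2% lower.

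With the inhibitor present, Dox raised TFE3 by 1.57 ± 0.07 (SE) on the same log2 scale, with an interval of 1.42 to 1.71 and an adjusted p of 3.43e-07. TFE3 was number 19 by size there, and its mean FPKM was 3.03 times that of the inhibitor alone. PRCC rose by 0.32 ± 0.10 (SE), with an interval of 0.10 to 0.54 and an adjusted p of 0.0494, and its ratio of means was 1.26. The PRCC call lay at the threshold and was lost on leaving out any of 8 libraries, with adjusted p from 0.0673 to 0.155, and after rescaling. Those libraries were vehicle replicate 2, all Dox replicates, inhibitor replicates 2 and 3, and replicates 1 and 3 with both agents. MITF changed by -0.06 (interval -0.28 to 0.17, adjusted p = 0.699) and TFEB by 0.12 (interval -0.12 to 0.35, adjusted p = 0.45). Over all tested genes the share called was 18.2%, with 12.2% higher and 6.06% lower, and 36.9% had groups without overlap, 25.2% higher and 11.7% lower; TFE3 and PRCC were called and without overlap, both higher. Replicate numbers may mark pairs in this comparison, but replicate 2 did not show it. Deviations from group means correlated at 0.133 between the inhibitor and combined libraries numbered 2. They correlated at 0.154 between inhibitor replicate 2 and combined replicate 3. With the number as a block 4548 genes were called in place of 2304, with no change in the call of any member.

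The inhibitor alone was then set against vehicle. TFEB fell by 0.63 ± 0.11 (SE) on the log2(FPKM + 1) scale, with an interval of -0.86 to -0.39 and an adjusted p of 8.87e-04, and its mean FPKM was 0.400 times that of vehicle. TFE3 fell by 0.35 ± 0.07 (SE; interval -0.50 to -0.20, adjusted p = 0.00182), and PRCC by 0.31 ± 0.10 (SE; interval -0.53 to -0.09, adjusted p = 0.0295). Their mean FPKM was 0.776 and 0.799 times that of vehicle. MITF changed by -0.03 (interval -0.25 to 0.20, adjusted p = 0.864). So 3 of the 4 members tested were called lower, against 38% of tested genes called, 26.3% lower and 11.7% higher. The same 3 members had groups without overlap, against 43.7% of tested genes, 29.9% lower and 13.8% higher. Replicate numbers may mark pairs here too, but again replicate 2 did not show it. Its deviations correlated at 0.097, against 0.244 between vehicle replicate 2 and inhibitor replicate 3. With the number as a block 6167 genes were called in place of 4802, with no change in the call of any member.

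In Dox-treated cells the inhibitor lowered the same 3 genes. TFE3 fell by 0.82 ± 0.07 (SE; interval -0.97 to -0.68, adjusted p = 5.05e-06), to 0.562 times its level with Dox alone. PRCC fell by 0.53 ± 0.10 (SE; interval -0.75 to -0.31, adjusted p = 0.00207), to 0.688 times. TFEB fell by 0.59 ± 0.11 (SE; interval -0.82 to -0.35, adjusted p = 0.00162), to 0.450 times, and MITF changed by 0.13 (interval -0.09 to 0.36, adjusted p = 0.356). These 3 were the members called and the members whose groups did not overlap. Of all tested genes 32.1% were called, 20.8% lower and 11.3% higher, and 52.0% had groups without overlap, 34.5% lower and 17.4% higher.

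TFEB passed the filter of FPKM 1 in at least 3 libraries only through the 6 libraries without the inhibitor, so its 2 falls are read with that in mind. With no filter the falls were -0.63 (adjusted p = 0.00114) and -0.59 (adjusted p = 0.00194). With 0.1 in place of 1 added before the logarithm they were -1.20 (adjusted p = 0.00101) and -1.05 (adjusted p = 0.00279). The median change of all tested genes between inhibitor and vehicle was -0.12 on the log2 scale, and -0.01 after a median-ratio rescaling of the libraries. After that rescaling TFE3 fell by 0.23 (adjusted p = 0.0206) and TFEB by 0.58 (adjusted p = 0.00172), while PRCC at -0.20 was no longer called (adjusted p = 0.171). Leaving out vehicle replicate 1 or 2 or inhibitor replicate 2 or 3 also ended the PRCC call, with adjusted p from 0.0518 to 0.118. Calls higher were 30.8% of all inhibitor calls as deposited and 55.02% after rescaling. For Dox against vehicle they were 59.23% and 43.42%, for Dox within inhibitor-treated cells 66.71% and 35.26%, and for the inhibitor within Dox-treated cells 35.29% and 53.87%.

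**Figure D3:**
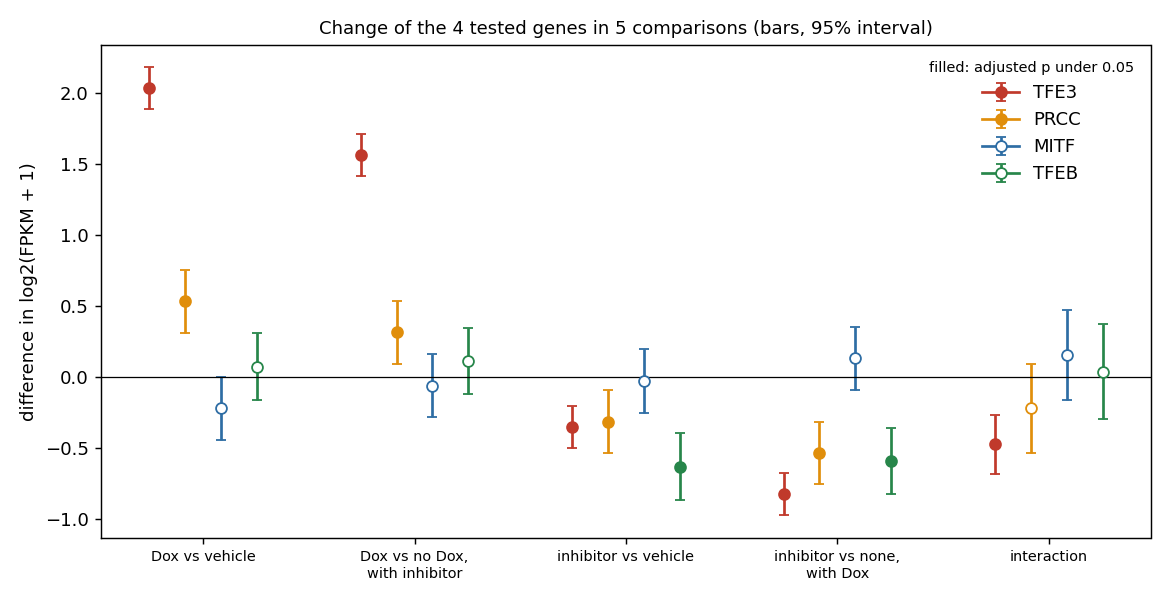
Change of TFE3, PRCC, MITF and TFEB on the log2(FPKM + 1) scale (y axis) in the 4 comparisons and the interaction (x axis), with 95% intervals from limma as bars; filled points have an adjusted p under 0.05. TFE3 is at 2.04 and 1.57 for Dox without and with the inhibitor, and TFEB is at -0.63 and -0.59 for the inhibitor without and with Dox.

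Whether the Dox response itself differed with the inhibitor was tested by the interaction, taken as the change with Dox in inhibitor-treated cells less that in untreated cells. It was -0.47 ± 0.10 (SE) for TFE3 on the log2 scale, with an interval of -0.68 to -0.26 and an adjusted p of 0.0229. Across all tested genes 2.82% were called for it, 1.91% lower and 0.909% higher, and TFE3 was the only member called. The TFE3 call was lost on leaving out any of 7 libraries, with values from -0.49 to -0.45 and adjusted p from 0.0532 to 0.0755. Those were vehicle replicate 2, all Dox replicates, inhibitor replicate 2, and replicates 2 and 3 with both agents. The interaction was -0.22 (interval -0.53 to 0.09, adjusted p = 0.572) for PRCC, 0.16 (interval -0.16 to 0.48, adjusted p = 0.729) for MITF and 0.04 (interval -0.29 to 0.37, adjusted p = 0.955) for TFEB.

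In FPKM, Dox added 113.9 ± 2.9 (SE) to TFE3 without the inhibitor and 56.4 ± 2.0 (SE) with it, the second being 49.5% of the first. The difference was -57.5 ± 3.5 FPKM (SE). For PRCC, Dox added 13.2 ± 1.8 FPKM (SE) without and 5.90 ± 2.5 FPKM (SE) with the inhibitor, a difference of -7.28 ± 3.1 FPKM (SE). Both differences already subtract the inhibitor's change in uninduced cells, -8.01 FPKM for TFE3 and -5.73 FPKM for PRCC. Nothing is drawn from a test on the FPKM scale. The increment of TFE3 was 8.64 times that of PRCC without the inhibitor and 9.56 times with it. The fusion holds only a part of each gene, and the lengths used in scaling are not known. Such ratios with Dox therefore do not count RNA molecules. The ratio of TFE3 to PRCC levels was 1.26 ± 0.01 with vehicle, 3.60 ± 0.12 with Dox, 1.23 ± 0.11 with the inhibitor and 2.96 ± 0.33 with both (SD, n = 3 each).

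Genes next to the resident TFE3 and PRCC loci were read to see whether levels moved there too. Of the 3 nearest tested genes on each side of TFE3, PIM2, OTUD5, GRIPAP1, CCDC120, PRAF2 and WDR45, only PRAF2 was called for Dox. That was near the share of all tested genes called, 17.9% without and 18.2% with the inhibitor, so nothing about the locus is drawn from it. PRAF2, a small membrane protein gene 27.67 kb from TFE3, rose by 0.40 (adjusted p = 0.00132) without and by 0.41 (adjusted p = 0.00189) with the inhibitor, from 21.7 to 28.9 FPKM and from 22.9 to 30.6 FPKM. None of the 6 neighbours of PRCC, namely ISG20L2, RRNAD1, MRPL24, SH2D2A, ARHGEF11 and ETV3, was called for Dox in either state by limma, with 3 at an unadjusted p under 0.05 without and 2 with the inhibitor. The share of all tested genes at that unadjusted p was not counted. SH2D2A, an adapter gene 5.43 kb away, fell by 0.44 with the inhibitor in Dox-treated cells (adjusted p = 0.00608), where 20.8% of all tested genes fell. PRCC overlaps HDGF on the other strand in the annotation, but their exons do not overlap. HDGF, a growth factor gene, was not called for Dox (-0.27, adjusted p = 0.0801) or for Dox with the inhibitor (-0.20, adjusted p = 0.17). The sources used here do not say how the counting used strand.

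**Figure D4:**
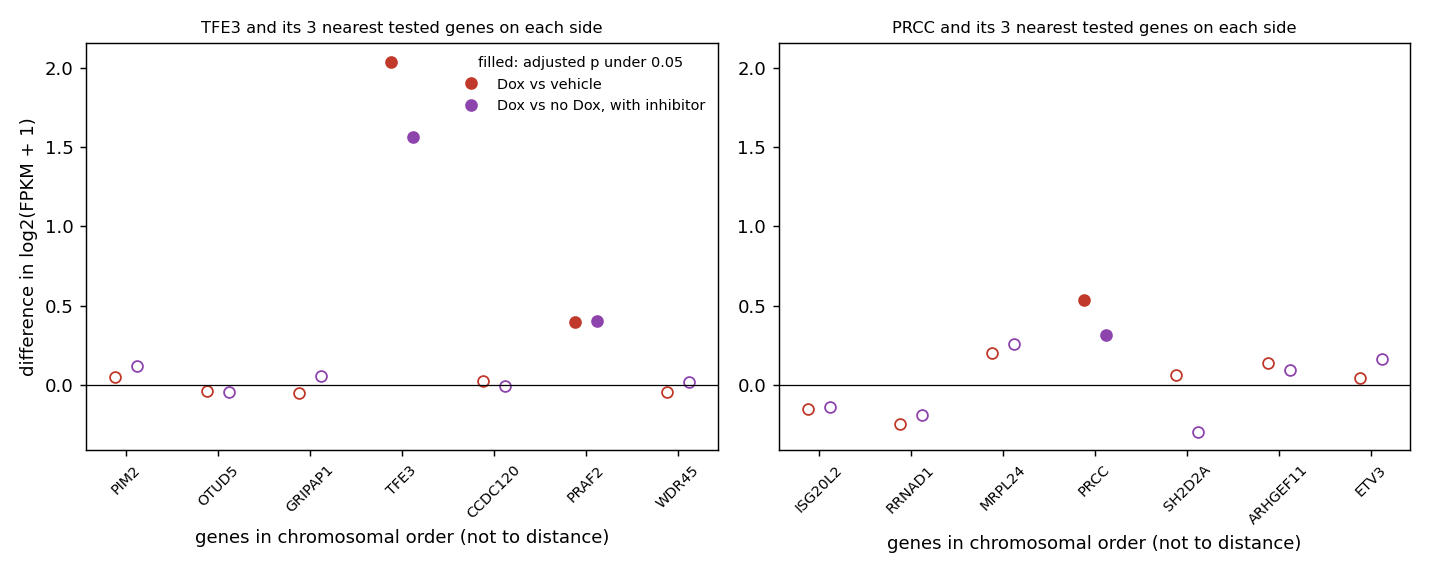
Dox change on the log2(FPKM + 1) scale (y axis) of TFE3, PRCC and the 3 nearest tested genes on each side, in chromosomal order and not to distance (x axis), without (red) and with (purple) the inhibitor; filled points have an adjusted p under 0.05. Among the neighbours only PRAF2, at 0.40 and 0.41, was called for Dox, where 17.9% and 18.2% of all tested genes were called.

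Transcript GC content varied with the changes across genes. Over 11996 genes the rank correlation of the log2 change with GC content was -0.383 for Dox and -0.558 for Dox with the inhibitor, and 0.227 and 0.088 for the inhibitor without and with Dox. These are correlations across genes, which are not independent replicates. The GC content was 59.5% for TFE3, 53.2% for PRCC, 46.2% for MITF and 62.4% for TFEB. With a trend on length and GC removed, MITF was called lower with Dox at -0.28 (adjusted p = 0.0287).

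The genes whose pattern over the 12 libraries was most like each member were found by Pearson r of log2(FPKM + 1) among 12239 genes. The 12 libraries form 4 groups, so r mostly compares group levels and is given as a description. For TFE3 they were PTTG1IP (r = 0.986), FIG4 (0.983), NCOA4 (0.979), RAB29 (0.979) and MALL (0.978). PTTG1IP stood at 198.2, 284.0, 184.2 and 253.4 FPKM with vehicle, Dox, inhibitor and both. NCOA4, the ferritin autophagy receptor, stood at 92.5, 126.4, 84.8 and 108.6 FPKM in the same order. For PRCC they were MARCH8 (r = 0.971), SAT2 (0.971), FOXRED2 (0.969), GGA2 (0.968) and TFPT (0.967). SAT2 went from 20.0 to 40.9 FPKM with Dox and stood at 22.1 FPKM with both agents. For MITF the values were lower, with SPDYA (r = 0.918), WWTR1 (0.911), BIRC3 (0.893), SLC7A11 (0.885) and UGCG (0.884). WWTR1, the Hippo pathway coactivator TAZ, stood at 83.0 FPKM with vehicle and 67.6 FPKM with Dox. For TFEB they included WDR25 (r = 0.983), PXMP4 (0.982), BAIAP2L2 (0.972) and NRGN (0.965). BAIAP2L2 stood at 9.07 and 9.04 FPKM without the inhibitor and at 4.80 and 5.14 FPKM with it.

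The regulators that place MiT/TFE factors in the cytoplasm or nucleus were read from a list of 30 genes of mTORC1, Rag GTPases, folliculin, calcineurin and 14-3-3 proteins. With Dox, 10 rose and 0 fell by limma, with 1 lower at an unadjusted p under 0.05, where 10.6% of all tested genes rose and 7.31% fell, and the list median was 0.12 against 0.04 for all tested genes. RRAGD, a Rag GTPase that brings these factors to the lysosome, rose by 2.26 (adjusted p = 2.58e-08), from 1.02 to 8.71 FPKM. FNIP2, a folliculin partner, rose by 1.50 (adjusted p = 1.45e-06), from 5.96 to 18.7 FPKM. With the inhibitor present, 12 rose and 0 fell with Dox, and 0 were lower at an unadjusted p under 0.05, where 12.2% of all tested genes rose and 6.06% fell; after the median-ratio rescaling 7 rose. The largest were FNIP1 at 0.68 (adjusted p = 0.0144) and RRAGC at 0.68 (adjusted p = 2e-05). The FNIP1 call there was lost on leaving out replicate 2 or 3 with both agents, with adjusted p of 0.0536 and 0.0598. The inhibitor alone lowered 13 and raised 1, where 26.3% of all tested genes fell and 11.7% rose, with a list median of -0.18 against -0.12 for all tested genes, FNIP2 at 0.53 (adjusted p = 0.001) and RRAGA at -0.48 (adjusted p = 6.25e-04). In Dox-treated cells it lowered 15 and raised 1, where 20.8% of all tested genes fell and 11.3% rose, with RRAGD at -1.95 (adjusted p = 3.51e-08) and the lysosomal calcium channel gene MCOLN1 at -1.08 (adjusted p = 3.04e-06). After the median-ratio rescaling the inhibitor counts were 9 lower and 4 higher, and 9 lower and 2 higher in Dox-treated cells. Of these 30 genes 6 are also on the target list. All 6, RRAGD and FNIP2 included, were among the 10 that rose with Dox, so these rises are counted in both lists.

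Genes taken as targets of the family, for lysosomal enzymes, the V-ATPase proton pump, autophagy and markers of translocation carcinoma, gave 29 tested genes. The list was compiled from general knowledge with earlier results of these data known, so its counts are a description. With Dox 28 rose and 0 fell by limma, with 0 lower at an unadjusted p under 0.05, where 10.6% of all tested genes rose and 7.31% fell, and with a median of 0.89 against 0.04 for all tested genes. GPNMB, a lysosomal glycoprotein used as a tumour marker, rose by 2.90 (adjusted p = 3.65e-09), from 7.02 to 58.6 FPKM. NMRK2, a nicotinamide riboside kinase gene, rose by 3.85 (adjusted p = 9.79e-08), from 0.12 to 15.2 FPKM. NMRK2 and TRIM63, a ubiquitin ligase gene, passed the FPKM filter only through the Dox libraries, where they were high, so their differences from that group were bound to be found. Without these 2 genes, 26 of 27 rose with Dox, the inhibitor lowered 25 in Dox-treated cells, and the interaction was called for 16. With the inhibitor present Dox raised 14 and lowered 2, where 12.2% of all tested genes rose and 6.06% fell, with a median of 0.29 against 0.08 for all tested genes, and ATP6V1A, a V-ATPase subunit, rose by 0.82 (adjusted p = 3.41e-05) and GPNMB by 0.73 (adjusted p = 1.21e-04). The inhibitor alone raised 6 and lowered 9, with a median of -0.11 against -0.12 for all tested genes, of which 11.7% rose and 26.3% fell. ATP6V1A fell by 1.17 (adjusted p = 4.01e-07) and NEU1, a lysosomal sialidase, fell by 0.95 (adjusted p = 1.59e-05). In Dox-treated cells it lowered 27 and raised 1, where 20.8% of all tested genes fell and 11.3% rose. The median was -0.72 against -0.08 for all tested genes, with NMRK2 at -3.36 (adjusted p = 1.04e-07) and GPNMB at -2.05 (adjusted p = 2e-08). The interaction was called for 18, all lower, where 1.91% of all tested genes were called lower, with a median of -0.59 against 0.05 for all tested genes. After the median-ratio rescaling the inhibitor alone raised 7 and lowered 7. Of the markers of other cell types, 4 were high enough to be tested, CD68, COL1A1, LUM and PMEL. By limma 3 of them were higher with Dox at an unadjusted p under 0.05. The share of all tested genes at that unadjusted p was not counted, so nothing is drawn from this count. PMEL had a group mean above FPKM 1 only with Dox, at 1.24, so its rise is read with the filter in mind. Of 8 macrophage and osteoclast markers only CD68, itself a lysosomal gene, reached FPKM 1, and PTPRC was at most 0.02 FPKM. The summed level of that list ran from 34.8 to 42.9 with vehicle, 53.8 to 59.2 with Dox, 25.9 to 31.5 with the inhibitor and 30.0 to 34.3 with both. Of 8 fibroblast markers COL1A1 and LUM reached FPKM 1, COL1A2 was listed at 0, and the list summed to 7.03 to 7.52 with vehicle, 11.7 to 12.7 with Dox, 5.36 to 7.48 with the inhibitor and 6.36 to 7.79 with both. LUM was at 2.17 FPKM with vehicle and 7.48 with Dox. Of 8 melanocyte markers only PMEL reached FPKM 1, and that list summed to 0.94 to 1.28 with vehicle and 1.75 to 1.92 with Dox. None of 6 endothelial markers reached FPKM 1. The part of these markers in the results was not tested.

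**Figure D5:**
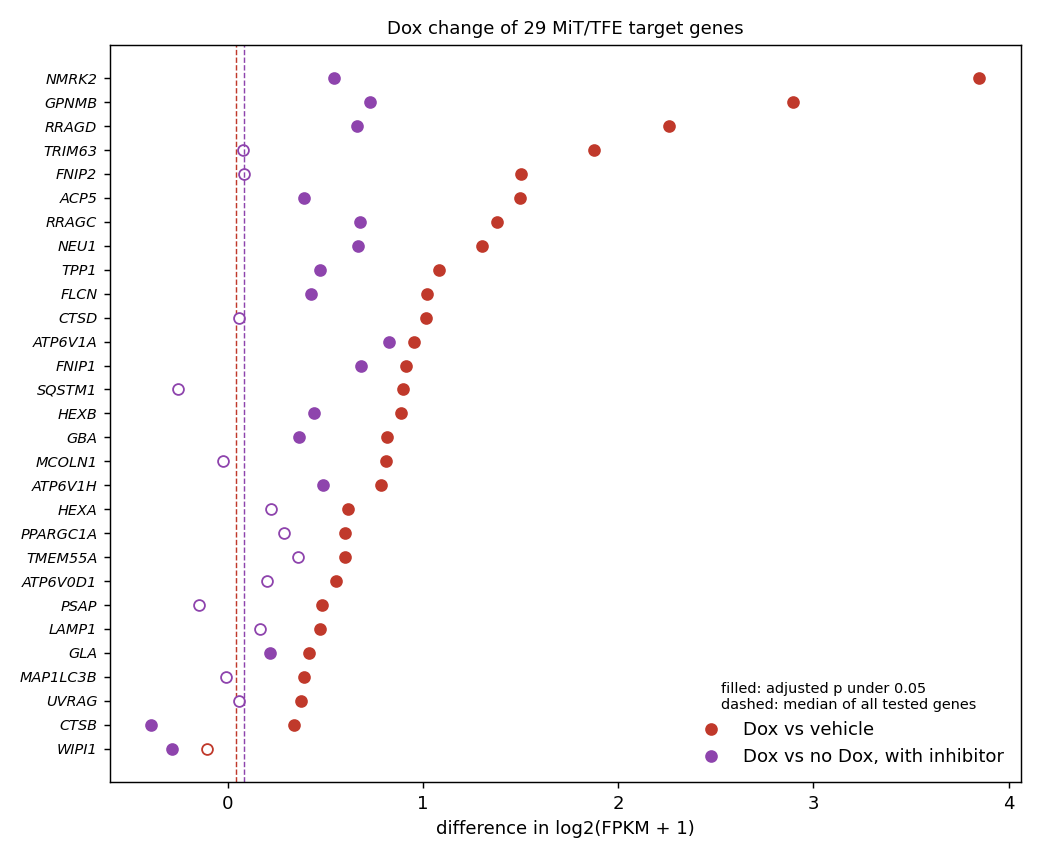
Dox change on the log2(FPKM + 1) scale (x axis) of 29 target genes (y axis) without (red) and with (purple) the inhibitor; filled points have an adjusted p under 0.05 and dashed lines are the medians of all tested genes. Of 29 target genes 28 rose with Dox with a median of 0.89, and 14 rose with Dox when the inhibitor was present, with a median of 0.29.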

How the data were processed

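Poly(A) RNA was sequenced from 12 HK-2 libraries in 4 groups. Per the labels' protocols, total RNA came from TRIzol and the TruSeq Stranded mRNA kit was used. Trim Galore 0.6.7, Salmon 1.9.0 and the builds GRCh38.p13 and hg38 are named in the submitters' processing notes. The authors deposited 1 table of FPKM; the sources used here do not give its gene annotation or calculation. Members, lists and tests were chosen with earlier results of these data known, and the lists were compiled from general knowledge.

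Genes at FPKM 1 or more in at least 3 libraries, 12649 or 48% of the table, were tested on log2(FPKM + 1). This scale understates changes of low genes, TFEB here. One limma 3.58.1 model (R 4.3.3) with the 4 groups was fitted to all libraries, with an intensity trend, and genes were called at a Benjamini-Hochberg adjusted p under 0.05 over all genes tested. All p-values are two-sided and measure the spread between these libraries. On simulated data with 200 changed genes among 12649, the model recovered 58 of 100 changed by 0.5 and 92 of 100 changed by 1 on the log2 scale, with 5 unchanged genes called. The simulated noise was normal and independent between genes and libraries, and only the Dox group was changed. Deviations shared between libraries and GC trends, both present in these data, were not simulated, so these counts may not hold for them.

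Named genes were all members, the 5 genes most like each tested member, 3 neighbours on each side of TFE3 and PRCC, and, per list and comparison, the 2 called genes with the largest change; 1 gene that the rule names is not reported here. GENCODE v29 and RefSeq gave positions and sequences. Deviations of same-numbered libraries from their group means correlated at 0.549, 0.133 and 0.337 between the inhibitor and the combined group. Between vehicle and the inhibitor alone they correlated at 0.686, 0.097 and 0.505. For replicate 2 some unlike-numbered libraries correlated more. Inhibitor replicate 2 and combined replicate 3 gave 0.154, and vehicle replicate 2 and inhibitor replicate 3 gave 0.244. Numbers were used as pairs only in the block alternative, and the main model does not use them. Alternatives were another pseudocount, other filters, rescaling, only the groups compared, a replicate block, length and GC trends, and leaving out each library. An exact permutation test of inhibitor labels within each Dox level had been planned for the Dox increments in FPKM (p = 0.1 for TFE3, 0.305 for PRCC). Its permuted values also hold the inhibitor's effect in uninduced cells, so nothing is drawn from it. Figures were drawn with matplotlib 3.10.9.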

Additional observations from a re-analysis of the deposited data

Results flagged for a closer look

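The limma interaction test was called for TFE3 and for 10 of the other genes named by the rule above, against 2.82% of all tested genes. Several of these genes were named for the size of their interaction, so their number says nothing further. All values are the change with Dox in inhibitor-treated cells less that in untreated cells, on the log2(FPKM + 1) scale, and all were lower with the inhibitor. TFE3 was at -0.47. Among target genes and regulators, NMRK2, which passed the FPKM filter only through the Dox libraries, was at -3.30 and GPNMB at -2.17. RRAGD was at -1.60, FNIP2 at -1.42, MCOLN1 at -0.83, RRAGC at -0.70 and NEU1 at -0.63. TRIM63, which the rule does not name and which passed the filter as NMRK2 did, was also called, at -1.80. SREBF1, a sterol-regulated factor of a related family, was at -0.83, the nuclear RNA NEAT1 was at -0.59, and RAB29, one of the genes most like TFE3, was at -0.28. The NEAT1 call was lost on leaving out any Dox replicate, inhibitor replicate 2, or replicate 1 or 3 with both agents, with adjusted p from 0.0507 to 0.0731. Since TFE3 RNA itself was lower with both agents than with Dox alone, the level of the fusion and the inhibitor cannot be told apart in these differences.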

How the results depend on the processing

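TFE3 kept its direction and call in the 4 comparisons under all alternatives run, as did PRCC for Dox and for the inhibitor in Dox-treated cells, and TFEB for both inhibitor comparisons. On leaving out each library, Dox against vehicle ran from 1.98 to 2.10 for TFE3 and from 0.47 to 0.60 for PRCC. The filter of mean FPKM 5 gives no TFEB value, and a fit of only the groups compared gives no interaction.

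MITF with Dox was called with a replicate block (-0.22, adjusted p = 0.0243), with a length and GC trend removed (-0.28) and with both (-0.28). With trend and block it was also called for Dox with the inhibitor (-0.17; leaving out libraries gave -0.17 to 0.0088) and for the inhibitor in Dox-treated cells (0.19). For the inhibitor alone MITF turned to 0.089 after median-ratio rescaling, 0.076 after quantile rescaling and 0.092 with the trend removed, with or without the block, and ran from -0.093 to 0.089 over libraries. After quantile rescaling TFEB turned to -0.02 for Dox and -0.0096 for Dox with the inhibitor, and its interaction ran from -0.031 to 0.11 over libraries. PRCC for Dox with the inhibitor lost its call with no filter (0.32), median-ratio (0.23) and quantile rescaling (0.25) and only the groups compared (0.32), and ran from 0.23 to 0.41. PRCC for the inhibitor lost it at -0.20, -0.22 and -0.31 under the last 3, and ran from -0.38 to -0.24. The TFE3 interaction ran from -0.53 to -0.41. After median-ratio rescaling the mean FPKM was 141 for TFE3 with Dox, 29.5 for TFE3 with the inhibitor and 39.2 for PRCC with Dox.

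Genes called for Dox were 3741 with the block and 4041 with block and trend, against 2269, and 1427 to 2665 over libraries. For Dox with the inhibitor they were 1099 with only the groups compared and 4548 with the block, against 2304, and 1121 to 2920. For the interaction they were 666 with the block, 823 with the trend and 1088 with both, against 357, and 186 to 420. For the inhibitor against vehicle, where numbers may also mark pairs, they were 6167 with the block, against 4802. Same-numbered vehicle and Dox libraries correlated at 0.017, -0.072 and 0.198. Those with Dox and with both agents correlated at 0.135, -0.09 and 0.077. In these comparisons the numbers were not taken as pairs.

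List calls moved as follows. Regulators gave 18 for Dox with trend and block; for Dox with the inhibitor they gave 7 after either rescaling and with the trend, 5 with only the groups compared, and 6 to 12 over libraries. Fusion partners for Dox gave 7 after median-ratio rescaling, 8 with the block or the trend, 10 with both, and 2 to 6. For Dox with the inhibitor they gave 2 after either rescaling or with the trend, 0 with only the groups compared, 6 with the block, 4 with both, and 0 to 2. Their interaction gave 3 with the block, 5 with the trend, 6 with both, and 0 to 2. Related factors gave 2 for Dox with the inhibitor at mean FPKM 5 or with only the groups compared, and 2 to 5; 14 for the inhibitor with trend and block, and 5 to 9; and 2, 3 and 5 for the interaction with block, trend and both, and 1 to 2. PRCC partners for Dox gave 2 after median-ratio rescaling, with the block or with the trend, 3 with both, and 0 to 1. For Dox with the inhibitor they gave 1 after either rescaling, 6 with the block, 2 with the trend, 3 with both, and 0 to 1. For the inhibitor they gave 2 and 3 after median-ratio and quantile rescaling and 3 with only the groups compared. The cause of these moves was not tested.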

Other observations

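Of 21 tested genes among the other fusion partners of TFE3 or TFEB, 2 rose and 2 fell with Dox, where 17.9% of all tested genes were called. NEAT1 rose by 0.65 (adjusted p = 3.18e-04), from 112.7 to 176.9 FPKM, and the Wnt signalling gene DVL2 by 0.55 (adjusted p = 6.83e-04). The inhibitor alone lowered 12 and raised 1, where 26.3% of all tested genes fell, and in Dox-treated cells it lowered 8 and raised 1, where 20.8% fell. The histone acetyltransferase gene KAT6A was at -0.74 (adjusted p = 1.49e-04) and NEAT1 at -0.65 (adjusted p = 1.39e-04) with the inhibitor alone, and at -0.60 and -1.24 in Dox-treated cells. The list median for the inhibitor alone was -0.29, against -0.12 for all tested genes. For Dox with the inhibitor present only KAT6A was called, at 0.39 (adjusted p = 0.02), and that call was lost on leaving out replicate 2 or 3 with both agents, with only the groups compared (adjusted p = 0.072), and with a length and GC trend removed (0.18), with or without the replicate block.

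Among 16 tested factors of related helix-loop-helix zipper families, 3 rose and 3 fell with Dox, where 10.6% and 7.31% of all tested genes did. MYC fell by 0.74 (adjusted p = 1.28e-05), from 119.8 to 71.0 FPKM, and SREBF1 rose by 0.96 (adjusted p = 9.09e-05). The inhibitor alone raised MYC by 0.57 (adjusted p = 4.02e-05), to 177.7 FPKM, and MXD3, a MYC antagonist, was at -1.05 (adjusted p = 7.6e-07). That comparison gave 2 higher and 6 lower as deposited, where 11.7% and 26.3% of all tested genes were called, and 6 higher and 3 lower after rescaling. With Dox and the inhibitor MYC stood at 120.4 FPKM.

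Of 12 genes whose proteins work with PRCC in splicing and mitosis, 0 were called for Dox in either state by limma, with 2 at an unadjusted p under 0.05 without and 5 with the inhibitor. Of all tested genes 17.9% and 18.2% were called there at an adjusted p under 0.05. Their share at the unadjusted p was not counted, so nothing is drawn from the counts of 2 and 5. The inhibitor lowered 5, where 26.3% of all tested genes fell, with SRSF1 at -0.45 (adjusted p = 4.79e-05) and U2AF2 at -0.38 (adjusted p = 0.00386), both splicing factors. In Dox-treated cells it also lowered 5, where 20.8% fell, with PRPF19 at -0.38 (adjusted p = 0.00637) and U2AF2 at -0.35 (adjusted p = 0.00678).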
